A study of Mus musculus with 64 samples.

Results

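Transcripts of 6 genes that make, use or move lactate were followed in mouse gastrocnemius: the lactate dehydrogenase genes Ldha, Ldhb and Ldhd, the monocarboxylate transporter genes Slc16a1 and Slc16a3, and Bsg, which encodes a partner protein of these transporters. They were picked by name, and are 6 of the 55401 genes counted. All 6 had enough counts to be tested, among 15241 genes in all. RNA was sequenced from 64 mice in 8 groups, each with 4 females and 4 males, that cross 2 genotypes, fl/fl and HIF1α KO, with 2 times of day, ZT3 and ZT15, and with running or rest. Every mouse, controls included, was homozygous for a floxed Hif1a allele, in which loxP sites enclose exon 2. HIF1α KO mice, labelled ko, carried in addition a Cre transgene under the human α-skeletal actin (HSA) promoter, which is active in muscle fibres, so that other cells in the muscle keep the gene. The fl/fl mice, labelled wt, lacked Cre. The cross had been kept on C57BL/6JBomTac for between 2 and 9 generations, and the study used mice aged 12 to 18 weeks. ZT3 falls early in the light phase, when mice rest, and ZT15 early in the dark phase, when they are active. Exercised mice ran for 60 min on a treadmill, up to 16 m/min and at an incline of 5% according to the labels. Sedentary mice stood on a mock treadmill, and muscle was taken 3 h later. ZT3 and ZT15 thus name the time of the run or mock run throughout. The muscle itself was sampled some hours after the named time.

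Lactate dehydrogenase is a tetramer that interconverts pyruvate and lactate. The Ldha product, the M subunit, dominates in fast glycolytic fibres and the Ldhb product, the H subunit, in heart and oxidative fibres, while Ldhd encodes a mitochondrial enzyme that acts on D-lactate. Lactate crosses the cell membrane with a proton through monocarboxylate transporters: MCT1, the Slc16a1 product, is the main route of uptake in oxidative fibres, and MCT4, the Slc16a3 product, of export from glycolytic fibres. Both need basigin, the Bsg product, to reach the surface. Ldha and Slc16a3 are among the textbook targets of HIF1, which binds the letters ACGTG or GCGTG in DNA.

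Because the deleted factor reads DNA, the stretches just upstream of a RefSeq start site of the enzyme pair and the transporter pair are shown. RefSeq promoter windows on GRCm38.p6 were matched for 5 of the 6 genes (Ldha, Ldhb, Ldhd, Slc16a1 and Slc16a3). Each line gives the 200 bases before the start site on the gene's own strand, 5′ to 3′, and capitals mark ACGTG or GCGTG on either strand (read as CACGT or CACGC on the other), which includes the E-box CACGTG.
Ldha: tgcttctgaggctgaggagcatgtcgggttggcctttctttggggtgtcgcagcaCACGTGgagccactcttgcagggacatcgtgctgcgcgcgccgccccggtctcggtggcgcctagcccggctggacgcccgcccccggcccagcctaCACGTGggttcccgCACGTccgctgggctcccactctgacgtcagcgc
Ldhb: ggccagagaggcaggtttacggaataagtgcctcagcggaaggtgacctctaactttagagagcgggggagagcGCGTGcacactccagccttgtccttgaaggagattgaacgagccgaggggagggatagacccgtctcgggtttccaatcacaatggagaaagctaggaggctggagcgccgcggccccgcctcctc
Slc16a1: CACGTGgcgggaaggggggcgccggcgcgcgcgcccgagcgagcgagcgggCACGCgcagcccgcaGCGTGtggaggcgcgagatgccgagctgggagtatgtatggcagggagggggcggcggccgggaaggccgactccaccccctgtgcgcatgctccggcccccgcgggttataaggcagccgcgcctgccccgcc
Slc16a3: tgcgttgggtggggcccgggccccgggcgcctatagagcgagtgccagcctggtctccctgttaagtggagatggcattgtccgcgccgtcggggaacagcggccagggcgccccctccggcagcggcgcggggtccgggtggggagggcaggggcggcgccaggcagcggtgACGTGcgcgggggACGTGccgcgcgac
The windows lie at chr7:46845604-46845803 on the plus strand for Ldha, chr6:142507958-142508157 on the minus strand for Ldhb, chr3:104638464-104638663 on the plus strand for Slc16a1 and chr11:120948867-120949066 on the plus strand for Slc16a3. The Ldha and Slc16a3 windows fall inside the gene spans given further on. Their RefSeq start sites lie downstream of the first base of the annotated gene. Counting back from the RefSeq start site, the Ldha window shown held CACGTG at -145 and -48 and CACGT at -34. RefSeq gave a second window for Ldha, whose 200 upstream bases at chr7:46846882-46847081 on the plus strand are not shown, with no CACGTG and CACGC at -59. In Slc16a1, CACGTG began at -200, CACGC at -149 and GCGTG at -134, while Slc16a3 held ACGTG at -27 and -14 and Ldhb held GCGTG at -126. The Ldhd window, at chr8:111630337-111630536 on the minus strand and not shown, held CACGTG at -139. Of 32851 RefSeq windows, 38.6% held ACGTG or GCGTG on either strand within 250 upstream bases, 6.02% held CACGTG, and 0.429% held CACGTG at 2 or more places. A match describes letters only.

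The 63 libraries analysed held between 2359780 and 40377963 counts, and 3 of them held under 5000000. The library of mouse 44 (HIF1α KO, ZT3, exercised), with 382 counts, was left out, which leaves 7 mice in that group. The least counted value among the 6 genes was 68 reads, for Ldhd in the shallowest library. Levels are given as CPM, read counts relative to library size, with sizes scaled by the TMM method. Genes of fast fibres summed to between 84639 and 159000 CPM per library over 10 markers, and genes of slow fibres to between 412 and 4255 CPM over 10, so fast-fibre genes dominated in the muscle labelled gastrocnemius. In whole muscle, fewer cells of a type and less RNA per cell cannot be told apart. Hif1a itself averaged 36.4 CPM in both genotypes, with an SD of 4.80 over 31 HIF1α KO libraries and 6.31 over 32 fl/fl libraries. Its log2 fold change was 0.0042 (SE 0.0492, adjusted p = 0.979). The count sums all exons and the deletion removes exon 2, so this value does not check the genotype labels. The Schwann cell markers Mbp and Prx fell in HIF1α KO muscle, by -0.44 (adjusted p = 0.0338 in edgeR) and -0.42 (adjusted p = 0.0512) on the log2 scale. The part of this in the genotype values of the 6 genes was not tested. No marker of slow fibre, fast fibre, red blood cell, adipocyte, endothelium or leukocyte passed the genotype test.

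Per kilobase of exon, Ldha was the most abundant of the 6 transcripts in every library, at 494 ± 77.5 CPM per kb (SD, n = 63). Bsg followed at 164 ± 24.2, Ldhb at 65.9 ± 17.1, Slc16a3 at 35.7 ± 7.95, Slc16a1 at 14.8 ± 2.70 and Ldhd at 5.65 ± 0.701 CPM per kb. Each exceeded the next in all 63 libraries, apart from Ldhb and Slc16a3, where Ldhb was higher in 57 of 63, so only these neighbours overlapped within libraries. Ldha lies on GRCm38 chromosome 7 from 46841475 to 46855627 on the plus strand, Ldhb on chromosome 6 from 142490249 to 142507957 on the minus strand, and Ldhd on chromosome 8 from 111623785 to 111630374 on the minus strand. Slc16a1 lies on chromosome 3 from 104638668 to 104658462, Slc16a3 on chromosome 11 from 120948480 to 120960868, and Bsg on chromosome 10 from 79704491 to 79711969, all on the plus strand. All 6 are protein coding. Ldhd shares 2246 exonic bases with Znrf1 on the opposite strand, and whether reads were counted by strand is not stated, so the Ldhd counts are uncertain. Ldha has pseudogene copies in the annotation, and how reads shared with them were counted is not stated either.

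**Figure D1:**
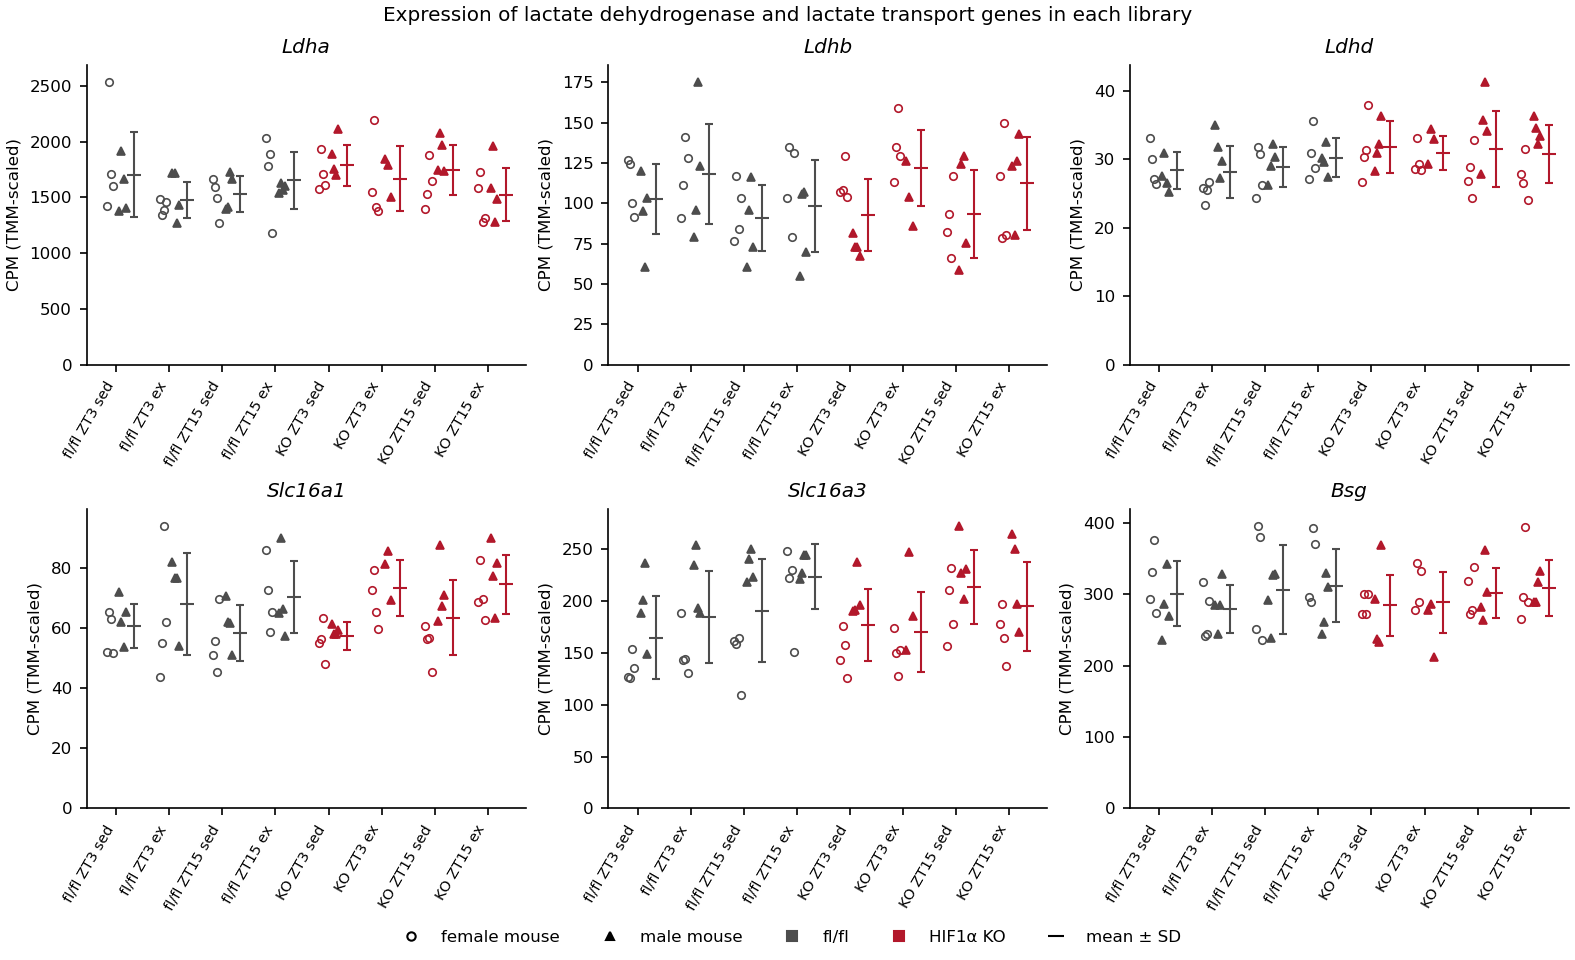
CPM of each gene (vertical axis, from 0) in the 8 groups (horizontal axis), with 1 point per mouse, circles for females, triangles for males, and the mean with its SD beside them. The groups of every gene overlap, Slc16a1 sits higher in exercised groups, and Slc16a3 points of males lie mostly above those of females.

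Averaged over the other factors, exercise raised Slc16a1, the ZT15 level of Slc16a3 exceeded that at ZT3, and Slc16a3, Slc16a1 and Ldhd were lower in females, while the loss of HIF1α moved none of the 6 past the threshold. Each comparison was made by edgeR's quasi-likelihood test on all genes, and an adjusted p under 0.1 counted as a call. For exercise, 1 of the 6 genes was called, against 2.84% of all genes tested. For time of day 1 of 6 was called, against 8.02% of all genes, and for sex 3 of 6, against 25.1%. For genotype 0 of 6 were called, against 8.26%. For genotype 1 of the 6, Ldhd, had an unadjusted p under 0.05 in edgeR, against 20.4% of all genes. DESeq2 also called 0 of the 6. The median log2 fold change of the 6 genes was 0.05 for genotype, 0.03 for time of day, 0.03 for exercise and -0.08 for sex, beside medians over all genes of -0.003, -0.003, -0.004 and 0.011.

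**Figure D2:**
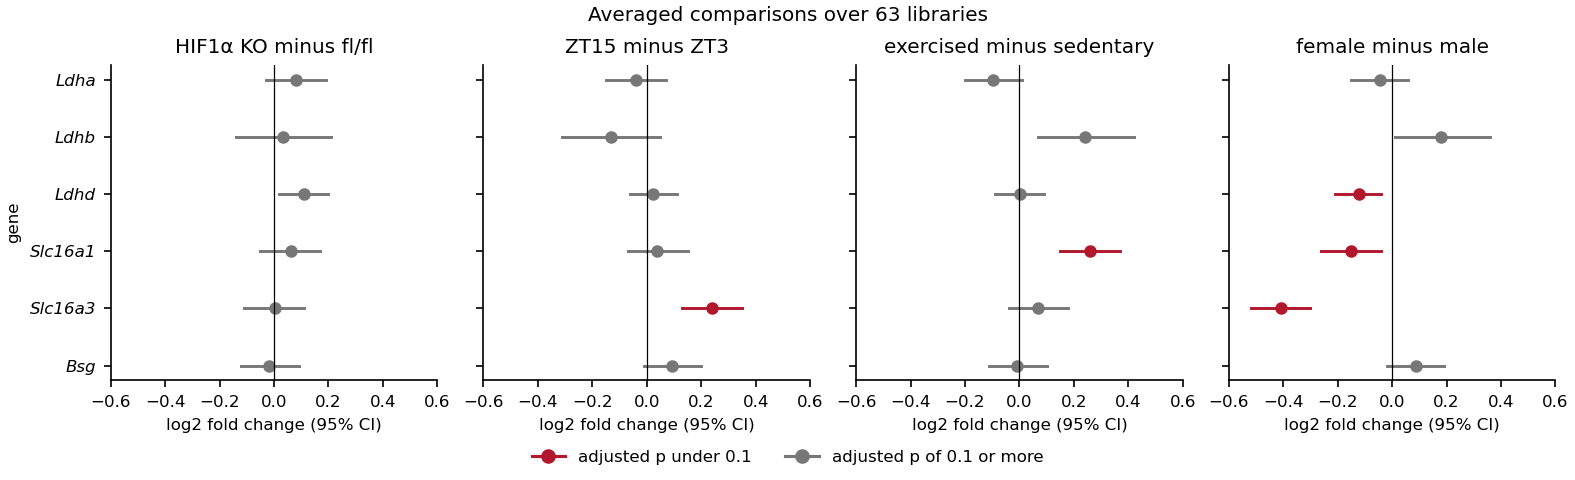
Log2 fold change of each gene (points) with its 95% confidence interval (lines) in the 4 averaged comparisons, on a common axis from -0.6 to 0.6, with called genes in red. Slc16a1 in the exercise panel, Slc16a3 in the time panel, and Ldhd, Slc16a1 and Slc16a3 in the sex panel are red, and no gene is red in the genotype panel.

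Ldha, the M subunit gene, differed little between group means, but its level differed between ranges of mouse numbers. Its group means ran from 1476 ± 165 CPM (SD, n = 8) in exercised fl/fl mice at ZT3 to 1785 ± 182 CPM (SD, n = 8) in sedentary HIF1α KO mice at ZT3. The lowest library overall had 1183 CPM, the median 1605 and the highest 2532. Mice numbered 17 to 32 ran from 1626 to 2532 CPM, and mice numbered 49 to 64 from 1183 to 1732 CPM. The labels do not name these ranges of numbers as batches. All 8 groups overlapped. Ldha had 1589 ± 262 CPM (SD, n = 32) in fl/fl and 1681 ± 247 CPM (SD, n = 31) in HIF1α KO libraries, a log2 difference of 0.08 (95% interval -0.03 to 0.19, adjusted p = 0.410 in edgeR). The same difference was -0.10 for exercise (-0.20 to 0.01, adjusted p = 0.528), -0.04 for ZT15 against ZT3 (-0.15 to 0.07, adjusted p = 0.755) and -0.04 for females against males (-0.15 to 0.06, adjusted p = 0.641). Exercised minus sedentary was -0.21 in fl/fl mice at ZT3, 0.11 in fl/fl mice at ZT15, -0.10 in HIF1α KO mice at ZT3 and -0.19 in HIF1α KO mice at ZT15, so the sign was positive in fl/fl mice at ZT15 and negative in the other 3 pairs. The test of that pattern, the interaction of all 3 factors, gave -0.42 (SE 0.213, unadjusted p = 0.0520, adjusted p = 0.350 in edgeR) and did not pass. The exercise value in fl/fl mice at ZT15 had a 95% interval of -0.10 to 0.33. It ran from -0.0 to 0.14 over the alternative settings listed below, so its sign was not firm.

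Ldhb, the H subunit gene, was the most variable of the 6 relative to its level, with a coefficient of variation of 25.9% over 63 libraries. Sedentary libraries ran from 58.9 CPM through a median of 95.7 to 129, and exercised libraries from 55 through 113 to 175. The exercised median was the higher, 22 of 31 exercised libraries lay above the sedentary median, and the ranges overlapped. The log2 difference was 0.24 (SE 0.0880, 95% interval 0.07 to 0.42, unadjusted p = 0.00789), and it did not pass across all genes (adjusted p = 0.186 in edgeR). Each of the 4 pairs gave a positive value, from 0.11 in fl/fl mice at ZT15 to 0.38 in HIF1α KO mice at ZT3, and none was called. Of 10 slow-fibre markers, 0 were called for exercise, with a median log2 fold change of 0.297. A slow-fibre score, the mean centred log2 CPM of the 10 markers, was 0.164 ± 0.667 (SD, n = 31) in exercised and -0.159 ± 0.642 (SD, n = 32) in sedentary libraries, which overlapped. With that score in the model, the exercise value of Ldhb was 0.10 (adjusted p = 0.715). For genotype, Ldhb differed by 0.03 (95% interval -0.14 to 0.21, adjusted p = 0.879), and for ZT15 against ZT3 by -0.13 (-0.31 to 0.05, adjusted p = 0.474). Females exceeded males by 0.18 (0.01 to 0.36, adjusted p = 0.147), which became -0.20 (adjusted p = 0.115) with the score in the model.

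Across the 63 libraries, Ldhb followed the slow-fibre score with a Pearson r of 0.727 (Spearman 0.693), and within sexes r was 0.692 in 32 female and 0.776 in 31 male libraries. Slc16a3 went the other way, with r of -0.613 over all libraries (Spearman -0.626), -0.356 within females and -0.389 within males. For Ldha r was -0.247, for Bsg 0.179, for Ldhd -0.133 and for Slc16a1 0.099. These correlations are descriptions, since libraries share sex and differ in depth.

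**Figure D3:**
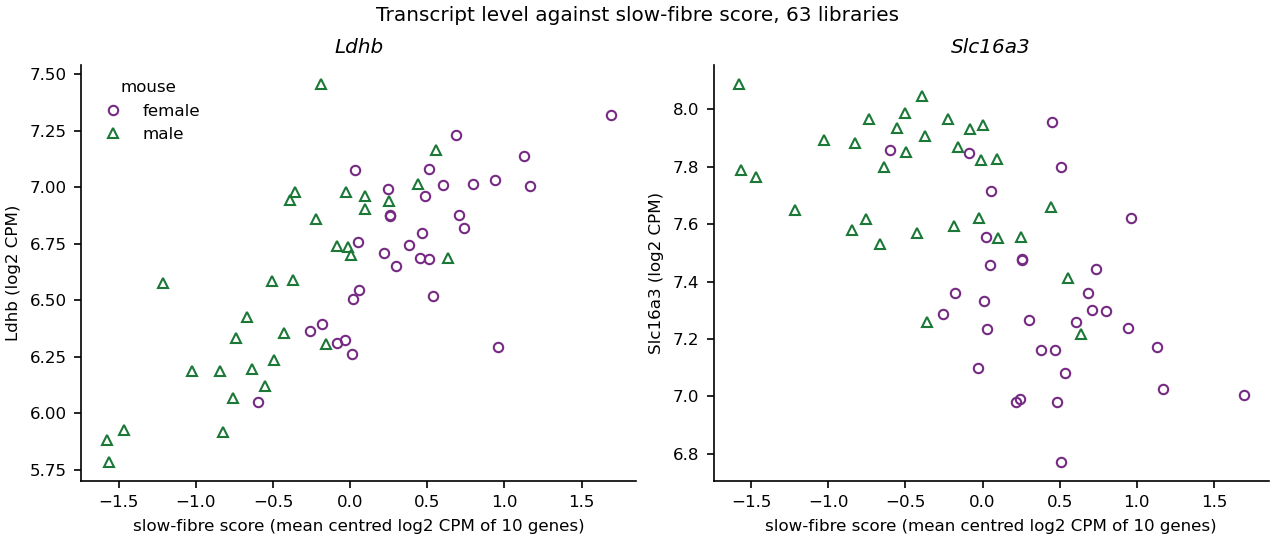
Log2 CPM of Ldhb (left) and Slc16a3 (right) on the vertical axes against the slow-fibre score on the horizontal axis, with 1 point per library (n = 63), circles for females and triangles for males. Ldhb points climb with the score in both sexes, and Slc16a3 points descend, with males at the upper left.

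Ldhd, the D-lactate dehydrogenase gene, had 28.9 ± 3.08 CPM (SD, n = 32) in fl/fl and 31.3 ± 4.02 CPM (SD, n = 31) in HIF1α KO muscle. The fl/fl libraries ran from 23.3 CPM through a median of 28.9 to 35.6, and the HIF1α KO libraries from 24.1 through 31.4 to 41.3, so the groups overlapped over most of their ranges. The log2 difference was 0.11 (SE 0.0432, 95% interval 0.02 to 0.20, unadjusted p = 0.0125, adjusted p = 0.124 in edgeR). Its values within the 4 pairs were 0.16 and 0.14 in sedentary and exercised mice at ZT3, and 0.12 and 0.02 at ZT15. Ldhd was lower in females, at 28.8 ± 3.45 CPM (SD, n = 32) against 31.4 ± 3.62 CPM (SD, n = 31), by -0.12 on the log2 scale (SE 0.0433, adjusted p = 0.0363). Of 32 female libraries, 24 lay below the male median. Within groups the female minus male value ran from -0.32 to 0.08, and it was positive in sedentary fl/fl mice at ZT3 and exercised fl/fl mice at ZT15. With no filter beyond 1 count the sex call was lost (-0.12, adjusted p = 0.114). Neither exercise (0.0007, 95% interval -0.09 to 0.09) nor time of day (0.02, -0.06 to 0.11) gave a call.

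Slc16a1, the MCT1 gene, rose 1.20-fold with exercise. Sedentary libraries had 59.9 ± 8.76 CPM (SD, n = 32) and exercised libraries 71.3 ± 12.1 CPM (SD, n = 31), a log2 fold change of 0.26 (SE 0.0550, 95% interval 0.15 to 0.37, adjusted p = 0.00236 in edgeR). Of 31 exercised libraries, 25 lay above the sedentary median. In fl/fl mice at ZT3 the sedentary libraries ran from 51.6 CPM through a median of 62.4 to 71.8, and the exercised from 43.8 through 69.2 to 93.8. Exercised mice there spread to both sides of the sedentary ones, with 4 of 8 above the sedentary median. In fl/fl mice at ZT15 the sedentary range was 45.2 to 70.6 CPM (median 58.6) and the exercised range 57.3 to 89.8 (median 65.8), with 7 of 8 above. In HIF1α KO mice at ZT3 the sedentary range was 48 to 63.3 CPM (median 57.9) and the exercised range 59.6 to 85.5 (median 72.4). The ranges of this pair touched only between 59.6 and 63.3 CPM, and 7 of 7 exercised libraries lay above the sedentary median. In HIF1α KO mice at ZT15 the sedentary range was 45.2 to 87.6 CPM (median 61.4) and the exercised range 62.6 to 89.8 (median 73.3), with 8 of 8 above.

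Within those pairs the log2 fold change of Slc16a1 with exercise was 0.16 (SE 0.109, adjusted p = 0.507 in edgeR) in fl/fl mice at ZT3, 0.28 (SE 0.110, adjusted p = 0.491) in fl/fl mice at ZT15, 0.36 (SE 0.112, adjusted p = 0.313) in HIF1α KO mice at ZT3 and 0.24 (SE 0.109, adjusted p = 0.887) in HIF1α KO mice at ZT15. All 4 were positive and none passed alone. The response did not differ detectably by genotype (interaction 0.08, 95% interval -0.14 to 0.30, adjusted p = 1.0) or by time of day (-0.0035, -0.22 to 0.22, adjusted p = 0.999). As a plain difference of mean log2 CPM, outside the model, it was 0.28 in females and 0.21 in males. In 4 blocks of 16 consecutive mouse numbers it lay between 0.15 and 0.41. The labels do not name these blocks as batches, but their median share of mitochondrial rRNA ran from 1.84% to 6.55%. With the slow-fibre score in the model, the exercise value of Slc16a1 was 0.22 (adjusted p = 0.0231 in edgeR). No marker of another cell type was called for exercise. Slc16a1 was also lower in females, by -0.15 (SE 0.0550, adjusted p = 0.0383), with 62.2 ± 11.9 CPM (SD, n = 32) against 68.9 ± 11.2 CPM (SD, n = 31) and 23 of 32 female libraries below the male median. Within groups the female minus male value ran from -0.39 to 0.03, positive in exercised fl/fl mice at ZT15, and within blocks from -0.32 to -0.02. The slow-fibre score took the sex value of the model to -0.26 (adjusted p = 0.00650), and the other markers that moved with sex are given with Slc16a3. Genotype (0.06, 95% interval -0.05 to 0.17, adjusted p = 0.555) and time of day (0.04, -0.07 to 0.15, adjusted p = 0.791) gave no call.

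Slc16a3, the MCT4 gene, was 1.18-fold higher in the ZT15 groups than in the ZT3 groups, both sampled 3 h after the run or mock run. The ZT3 libraries had 174 ± 38.2 CPM (SD, n = 31) and the ZT15 libraries 205 ± 40.8 CPM (SD, n = 32), a log2 fold change of 0.24 (SE 0.0555, 95% interval 0.13 to 0.35, adjusted p = 0.00294 in edgeR). Of 32 ZT15 libraries, 23 lay above the ZT3 median. In sedentary fl/fl mice the ZT3 range was 126 to 236 CPM (median 151) and the ZT15 range 109 to 250 (median 191). In exercised fl/fl mice the ranges were 130 to 254 (median 188) and 151 to 248 CPM (median 228). The ZT15 median was higher in both pairs, with 7 of 8 ZT15 libraries above the ZT3 median in each, and the ranges overlapped. In sedentary HIF1α KO mice the ZT3 range was 126 to 237 CPM (median 183) and the ZT15 range 156 to 272 (median 218). In exercised HIF1α KO mice the ranges were 128 to 247 (median 153) and 137 to 264 CPM (median 187). Of the 8 ZT15 libraries, 6 and 7 lay above the ZT3 median in these pairs.

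The 4 log2 values of Slc16a3 for time of day were 0.20 (adjusted p = 0.353 in edgeR) at rest and 0.30 (adjusted p = 0.233) after running in fl/fl mice, and 0.28 (adjusted p = 0.547) at rest and 0.16 (adjusted p = 0.589) after running in HIF1α KO mice. All were positive and none passed alone. As a plain difference of mean log2 CPM, outside the model, the time value was 0.28 in females and 0.19 in males. It was 0.29, 0.31 and 0.32 in 3 blocks of mouse numbers and 0.04 in the block with the highest numbers. The block values were not adjusted for sex. No difference of the time response between genotypes was detected (interaction -0.03, 95% interval -0.25 to 0.19, adjusted p = 0.999). Of the cell markers, the slow-fibre gene Casq2 alone was called for time of day, at -0.41 (adjusted p = 0.00657), and the slow-fibre score was 0.092 ± 0.681 (SD, n = 31) at ZT3 and -0.090 ± 0.655 (SD, n = 32) at ZT15. With that score in the model the time value of Slc16a3 was 0.21 (adjusted p = 0.00795).

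The exercise value of Slc16a3 was positive in fl/fl mice and small or negative in HIF1α KO mice, and the difference did not pass the test. Exercised minus sedentary was 0.17 (95% interval -0.05 to 0.39) at ZT3 and 0.27 (0.05 to 0.49) at ZT15 in fl/fl mice. In HIF1α KO mice it was -0.03 (-0.25 to 0.20) at ZT3 and -0.14 (-0.36 to 0.08) at ZT15. The HIF1α KO value at ZT3 ran from -0.06 to 0.05 over the alternative settings listed below, so its sign depended on the processing. The interaction of genotype and exercise was -0.30 (SE 0.111, 95% interval -0.52 to -0.08, unadjusted p = 0.00853), with an adjusted p of 1.0 in edgeR. That interaction called 0% of all genes, 306 genes (2.01% of those tested) had an unadjusted p under 0.05, and DESeq2 called 0. Averaged over both times, exercise gave 0.07 (95% interval -0.04 to 0.18, adjusted p = 0.753) and genotype 0.003 (-0.11 to 0.11, adjusted p = 0.986). Sedentary HIF1α KO mice differed from sedentary fl/fl mice by 0.11 at ZT3 and 0.19 at ZT15, and exercised mice by -0.08 and -0.22, with adjusted p between 0.521 and 0.931.

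**Figure D4:**
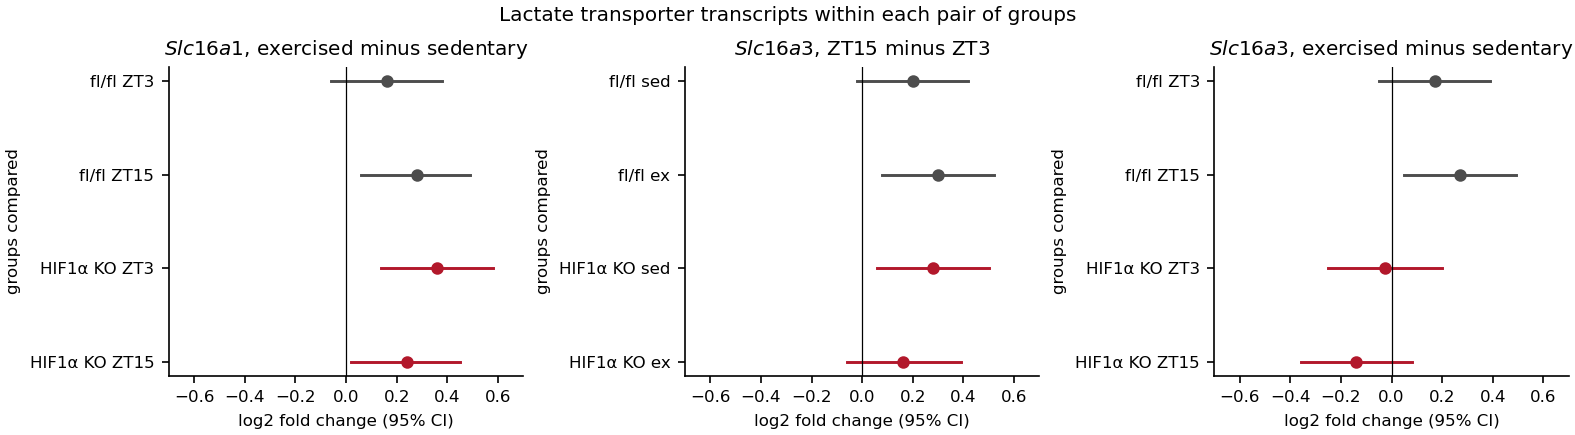
Log2 fold change (points) with 95% confidence intervals (lines) within each pair of groups, for Slc16a1 with exercise (left), Slc16a3 at ZT15 against ZT3 (middle) and Slc16a3 with exercise (right), with fl/fl pairs in grey and HIF1α KO pairs in red. All 8 points in the left and middle panels are above 0, and in the right panel the fl/fl points are above and the HIF1α KO points below 0.

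Among the averaged comparisons of the 6 genes, the largest difference was that between sexes in Slc16a3. Female libraries ran from 109 CPM through a median of 157 to 248, and male libraries from 149 through 223 to 272. Of 32 female libraries, 29 lay below the male median, and the ranges overlapped. Females were lower by -0.41 on the log2 scale (SE 0.0556, 95% interval -0.52 to -0.30, adjusted p = 2.9e-08 in edgeR), which is 1.33-fold, with means of 164 ± 34.6 CPM (SD, n = 32) and 217 ± 31.7 CPM (SD, n = 31). The value was negative in each of the 8 groups, from -0.67 to -0.16, and in each of the 4 blocks, from -0.53 to -0.17. The -0.16 came from exercised fl/fl mice at ZT15, where the female mouse 52 had 151 CPM. The other females there had 222, 230 and 248 CPM and the males 221, 227, 244 and 244, so that value rested on mouse 52. Marker genes moved with sex too. All 10 slow-fibre genes were higher in females (median log2 0.861), 4 of 10 fast-fibre genes were lower, 5 of 6 adipocyte genes and the Schwann cell genes Mbp and Prx were higher, 3 of 5 red blood cell genes and 1 of 5 endothelial genes were lower, and 0 of 3 leukocyte genes tested were called. Summed slow-fibre markers ran from 745 to 4255 CPM in females and from 412 to 1979 CPM in males, and adipocyte markers from 178 to 599 and from 147 to 520 CPM, with no marker at 0 in every library. With the slow-fibre score in the model the sex value of Slc16a3 was -0.27 (adjusted p = 0.00442). The part of the other markers in it was not tested.

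Bsg, the gene of the transporters' partner protein, gave no call in any comparison. Its group means ran from 280 ± 33.6 CPM (SD, n = 8) in exercised fl/fl mice at ZT3 to 312 ± 51.1 CPM (SD, n = 8) in exercised fl/fl mice at ZT15, and single libraries from 213 to 396 CPM. All groups overlapped. Its log2 difference was -0.02 for genotype (95% interval -0.12 to 0.09, adjusted p = 0.898 in edgeR), -0.01 for exercise (-0.11 to 0.10, adjusted p = 0.989), 0.09 for ZT15 against ZT3 (-0.01 to 0.20, adjusted p = 0.371) and 0.09 for females against males (-0.02 to 0.19, adjusted p = 0.270).

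None of the 6 genes was called in any comparison of single groups, by edgeR or by DESeq2. The genotype comparisons called 0.4% of all genes in sedentary mice at ZT3, 1.43% in exercised mice at ZT3, 0.0459% in sedentary mice at ZT15 and 0.4% in exercised mice at ZT15. The time comparisons called 1.88% at rest and 1.18% after running in fl/fl mice, and 0.479% at rest and 0.663% after running in HIF1α KO mice. The exercise comparisons called 0.236% in fl/fl mice at ZT3, 0% in fl/fl mice at ZT15, 0.131% in HIF1α KO mice at ZT3 and 0.0591% in HIF1α KO mice at ZT15. In fl/fl mice at ZT15, 1406 genes (9.23%) had an unadjusted p under 0.05 with exercise, and DESeq2 called 16. The tests of genotype by time of day, exercise by time of day, and all 3 factors together each called 0% in edgeR, and DESeq2 called 0, 0 and 1. At an unadjusted p under 0.05 in edgeR they had 648 (4.25%), 648 (4.25%) and 2196 genes (14.4%). These comparisons share groups and are not independent.

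Per kilobase, Ldhb made up 12.0 ± 3.57% of the sum of Ldha and Ldhb (SD, n = 63), from 6.26% to 22.6%. The share was 10.7 ± 2.62% (SD, n = 32) in sedentary and 13.3 ± 3.97% (SD, n = 31) in exercised libraries. It was higher after exercise at ZT3 in fl/fl mice (14.6 ± 4.38% against 11.5 ± 3.09%, SD, n = 8 each) and at both times in HIF1α KO mice, at 13.5 ± 3.19% (n = 7) against 9.98 ± 2.63% (n = 8) at ZT3 and 13.7 ± 4.20% against 10.1 ± 2.44% (n = 8 each) at ZT15, while fl/fl mice at ZT15 had 11.3 ± 3.90% and 11.2 ± 2.42%. Slc16a3 exceeded Slc16a1 by 1.26 ± 0.367 on the log2 scale per kilobase. In HIF1α KO mice this log2 ratio was 1.34 ± 0.237 in sedentary and 0.932 ± 0.257 in exercised mice at ZT3, and 1.49 ± 0.296 and 1.10 ± 0.237 at ZT15. In fl/fl mice it was 1.15 ± 0.359 and 1.18 ± 0.460 at ZT3, and 1.41 ± 0.466 and 1.41 ± 0.311 at ZT15. The exercised means were thus lower in HIF1α KO mice and close to the sedentary means in fl/fl mice. These ratios are given as descriptions and were not tested.

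**Figure D5:**
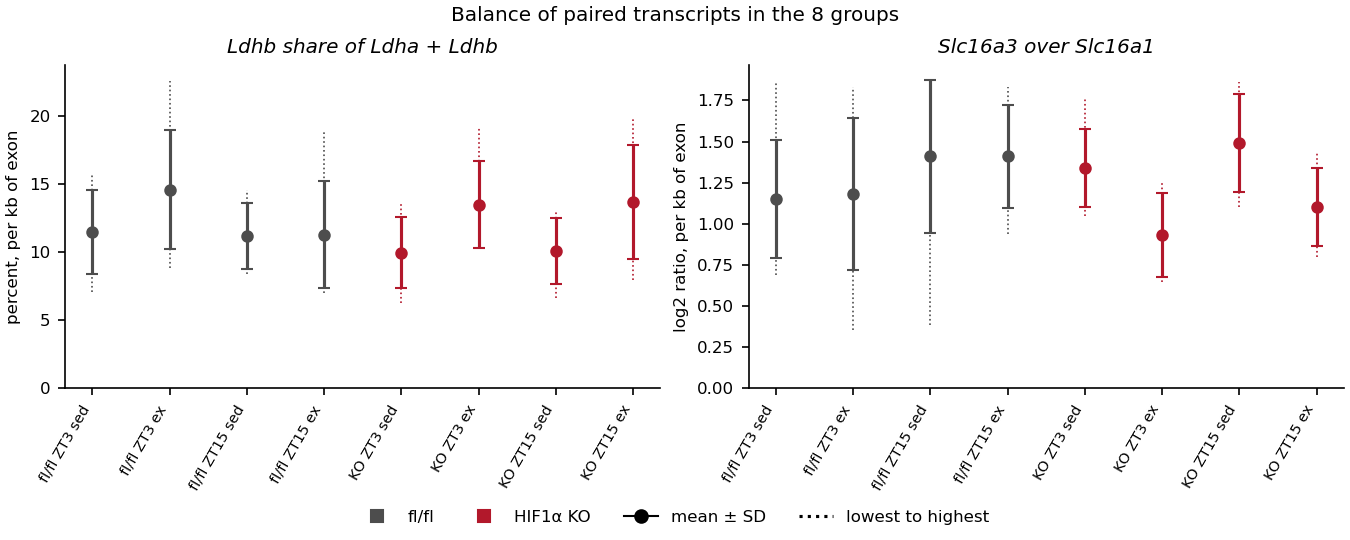
Ldhb as a percentage of Ldha plus Ldhb (left) and the log2 ratio of Slc16a3 to Slc16a1 (right), both per kilobase of exon, in the 8 groups, with points for means, solid bars for SD and dotted lines from the lowest to the highest library. The log2 ratio averages 0.932 and 1.10 in the exercised HIF1α KO groups, the lowest of the 8 means.

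For each gene, up to 3 genes whose log2 CPM followed it most closely over the 63 libraries were sought among 6781 genes with a mean of at least 10 CPM. Ldhb was followed by Myoz2, the gene of a Z-disc protein of slow fibres (Pearson r = 0.812), Idh2, which encodes a mitochondrial isocitrate dehydrogenase (0.807), and Khdrbs3 (0.751). Ldha was followed by Bod1 (0.861), Itgb1bp1 (0.860) and Zswim7 (0.860), and Ldhd by Bckdk, the gene of the kinase of branched-chain keto acid dehydrogenase (0.767), Uqcrc1 (0.707) and Adsl (0.703). Slc16a3 was followed by Spns2 (0.725) and Plekho1 (0.719), Slc16a1 by Slc25a5 (0.696), Fdx1 (0.636) and Larp4 (0.636), and Bsg by Ube2g2 (0.685), Rpl4 (0.658) and Ppil2 (0.628). Among the 6 genes themselves the highest r was 0.394, between Ldha and Ldhd, and the lowest -0.427, between Ldhb and Slc16a3. These values describe libraries that differ in depth and composition. The level of Ldha also differed between ranges of mouse numbers, and the part of this in its correlations was not tested.

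The neighbouring steps of lactate and pyruvate handling were followed through a list of 32 genes, of which 27 could be tested. Ldhal6b, Ldhc, Slc16a8, Slc5a12 and Slc5a8 could not. In HIF1α KO muscle 7 of 27 rose and 1 fell (median of the list 0.061). Dlat and Pdhx, genes of the pyruvate dehydrogenase complex, rose by 0.18 (SE 0.0418, adjusted p = 0.00490) and 0.18 (SE 0.0563, adjusted p = 0.0543). Gpt2, the gene of a mitochondrial alanine transaminase, rose by 0.22 (SE 0.0536, adjusted p = 0.00784), Haghl by 0.23 (SE 0.0735, adjusted p = 0.0489), and Pdp1, the gene of a phosphatase that activates the complex, by 0.23 (SE 0.0795, adjusted p = 0.0831). Cndp2, the gene that fell, encodes a peptidase that can join lactate to amino acids (-0.19, SE 0.0693, adjusted p = 0.0978). At ZT15 none of the 27 rose and 2 fell (median -0.006): Pdp2, another phosphatase of the complex, at -0.52 (SE 0.0896, adjusted p = 3.39e-05) and Pdk4, a kinase that shuts the complex off, at -0.52 (SE 0.171, adjusted p = 0.0614). With exercise 2 rose and 1 fell (median 0). Got1, the gene of the cytosolic aspartate transaminase, rose by 0.23 (SE 0.0568, adjusted p = 0.0155) and Pdp2 by 0.31 (SE 0.0895, adjusted p = 0.0435). Slc16a7, the gene of MCT2, which takes up lactate and pyruvate with high affinity, fell from 2.37 ± 0.697 CPM (SD, n = 32) to 1.78 ± 0.629 CPM (SD, n = 31), a log2 change of -0.41 (SE 0.119, adjusted p = 0.0533). In females 3 genes of the list were higher and 9 lower (median -0.106), among them Pcx, the pyruvate carboxylase gene, at 0.67 (SE 0.0858, adjusted p = 7.9e-09), Pkm, the muscle pyruvate kinase gene, at -0.24 (SE 0.0472, adjusted p = 9.65e-05), Gpt2 at -0.27 (SE 0.0537, adjusted p = 0.000111), Pdha1 at -0.20 (SE 0.0488, adjusted p = 0.00133) and Pdhx at -0.20 (SE 0.0563, adjusted p = 0.00617). Read against the share of all genes called, 8 of 27 stands beside 8.26% for genotype, 2 of 27 beside 8.02% for time of day, 3 of 27 beside 2.84% for exercise and 12 of 27 beside 25.1% for sex.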

How the data were processed

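RNA was measured in gastrocnemius of 64 mice by poly-A selected, stranded libraries read as paired 52-base reads. The authors mapped the reads to mm10 by STAR and ran featureCounts, and deposited the resulting raw counts of each gene, not normalized. The tool versions, the annotation release and the strand setting are not given in the sources used here. Groups, sexes and mouse numbers came from the sample labels. The mice are separate animals, and mouse numbers were not shared between groups. No pair of libraries within a group held identical counts.

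Identifiers, stripped of version numbers, were matched to GENCODE M21 on GRCm38 (55141 of 55401 matched, 54349 with the same version; the version of Ldhb differed). The edgeR package 4.0.16 (R 4.3.3) was used. Its filterByExpr step, with a minimum count of 10, chose the genes, TMM gave the scaling, and a robust quasi-likelihood model of group plus sex was fitted to 63 libraries. P-values were adjusted by Benjamini-Hochberg over all 15241 genes within each comparison, and a call needed an adjusted p under 0.1, the level used by the study. Averaged comparisons weight the 4 combinations of the other factors equally. Values within a sex or a block, and sex values within a group, are plain differences of mean log2 CPM without the model. Standard errors came from the F statistic, and 95% intervals from its degrees of freedom. Correlations used log2 CPM with a prior count of 2. Levels per kilobase used the union of exons. At 2359780 counts, the shallowest library limits low genes most.

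The genes, the lists and the comparisons were chosen with earlier results of these data known. The text names all 6 genes, up to 5 called genes of the list of lactate and pyruvate handling per averaged comparison by smallest p, up to 3 best correlated genes, and markers of slow fibre, fast fibre, red blood cell, adipocyte, endothelium, leukocyte and Schwann cell. Cndp2 and Casq2 were named after their values were seen, as the single gene called in its direction. The alternatives were an adjusted p under 0.05, RLE size factors, no filter beyond 1 count, at least 10 counts in every library, no sex term, the library of mouse 44 added, libraries under 5000000 counts removed, a block of 16 mouse numbers, the slow-fibre score as a covariate, the compared groups alone, DESeq2 1.42.0, and the longest transcript for lengths. The model was tested on simulated data. Results for some genes that this rule would name are not reported here.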

Additional observations from a re-analysis of the deposited data

Results flagged for a closer look

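A library far from the others was found in 2 of the 48 sets of libraries (6 genes in 8 groups), and chance alone flags about 1 set in 20. In sedentary fl/fl mice at ZT3, the male mouse 54 had 60.3 CPM of Ldhb, where the other 7 had between 91.5 and 127 CPM. In exercised fl/fl mice at ZT15, the female mouse 52 had 151 CPM of Slc16a3, where the others had between 221 and 248 CPM. Their libraries held 10295813 and 7592871 counts, within the range of all 63 libraries, but that of mouse 52 was the shallowest of its group.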

How the results depend on the processing

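The number of the 6 genes called was the same under all alternatives for genotype, time of day, exercise, every comparison of single groups and every interaction. For sex it was 3, but 4 with at least 10 counts in every library, where Ldhb was added (0.20, adjusted p = 0.0895), and 2 with no filter beyond 1 count, where Ldhd was lost. The exercise value of Slc16a1 ran from 0.22 to 0.26 and the time value of Slc16a3 from 0.21 to 0.25, and both stayed called under all 10 alternatives, the removal of the 3 libraries under 5000000 counts included (0.25 and 0.22). The genotype value of Ldhd ran from 0.10 to 0.11 with adjusted p between 0.12 and 0.304. Of 1266 values of single genes recomputed, 0 called values changed sign. Among the called values of the averaged comparisons, those moved by over 1.5 times were the sex values of Slc16a3 (-0.27) and Slc16a1 (-0.26), both with the slow-fibre score. Values of these comparisons that were not called moved too. With the score, Ldhb gave 0.10 for exercise, -0.20 for sex and -0.07 for time of day, Slc16a3 gave 0.12 for exercise and Bsg 0.05 for sex. The genotype value of Ldha was 0.036 with the block of 16 mouse numbers and 0.049 with mouse 44 added, and that of Slc16a1 was 0.040 with the block. The other values of these comparisons that moved so far were under 0.05 on the log2 scale in size before the change. With the longest transcript in place of the exon union, the mean Ldhb share was 8.27% and the log2 ratio of Slc16a3 to Slc16a1 was 1.55. No paired analysis was possible because mouse numbers are not shared between groups. Counts of Ldhd, which overlaps Znrf1, and low counts in shallow libraries limit the precision, and transcript levels say nothing of protein, enzyme activity or lactate flux.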
